A study of Mus musculus with 12 samples.

Results

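Nuclear receptors such as PPARγ switch genes on or off through partner proteins that do not bind DNA themselves. Corepressors of the NCoR family bring histone deacetylases to the receptor. Coactivators of the p160 family (the NCOA proteins) recruit the histone acetyltransferases CBP and p300. Receptors also contact MED1, a subunit of the Mediator complex, which in turn contacts RNA polymerase II. In fat cells these partners are known to set how strongly PPARγ drives its target genes, and RIP140 (Nrip1) and TLE3 are known for restraining or redirecting thermogenic and lipid-storage programs in adipocytes. The transcripts of 9 such partners, chosen by name for their role at nuclear receptors by a rule that uses no measured value, though with earlier results of these data known, are described here out of 55573 genes in the count table. They are the corepressors Ncor1, Nrip1 and Tle3, the p160 coactivators Ncoa1, Ncoa2 and Ncoa3, the acetyltransferases Crebbp (CBP) and Ep300 (p300), and the Mediator subunit Med1. All 9 passed the filter on low counts.

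RNA was sequenced from adipocytes grown in vitro out of SVF cells, the precursor-rich stromal vascular isolate of adipose tissue, from C57BL/6 mice. Cells were WT or carried PPARγ T166A (TA, alanine in place of a threonine in the DNA-binding domain) or T166D (TD, aspartate in its place, used as a mimic of phosphorylation), with 4 libraries per genotype. The mutations were made by CRISPR-Cas9 in the germ line, so they were present in every cell and throughout differentiation. All 12 libraries shared the same induction for 4 days with 850 nM insulin, 1 nM T3, 0.5 mM IBMX, dexamethasone and 125 nM indomethacin in 10% serum, followed by insulin and T3 until harvest on day 8. Nothing in the labels says whether the 4 libraries of a genotype came from separate animals or cultures, so p-values measure only the spread between these samples, which may be technical.

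The libraries held 16553324 to 20324286 counted reads, and levels are given as CPM, a gene's reads relative to the library total, with TMM scaling factors between 0.957 and 1.04. Adipocyte markers were read in all 3 genotypes. Fabp4 averaged 7708 CPM in WT, 8898 in TA and 5166 in TD, and Adipoq 729, 803 and 600 CPM. The summed level of 10 adipocyte markers was 19015 to 21509 CPM in WT, 17932 to 22555 in TA and 13308 to 15235 in TD. Of the 10, 8 fell in TD against WT, while in TA against WT 1 rose and 2 fell. The summed level of 10 preadipocyte and fibroblast markers was 9182 to 12465 CPM in WT, 10381 to 18605 in TA and 15704 to 23738 in TD. That sum was above the adipocyte marker sum in every TD library and in TA replicate 3 (18605 beside 17932 CPM). It was below the adipocyte marker sum in the remaining libraries. Of the 9 preadipocyte and fibroblast markers that could be tested, 7 rose in TD and 5 in TA, each relative to WT. Dlk1 was not tested, with a mean of 0 CPM in WT and TD. Skeletal muscle markers summed to 6.34 to 15.4 CPM in WT, 21.9 to 83.8 in TA and 21.5 to 326 in TD. Relative to WT, all 11 rose in TD and 6 rose in TA. Macrophage markers summed to 255 to 713 CPM in WT, 124 to 520 in TA and 532 to 722 in TD, and 0 of 7 were called in TD against WT by edgeR (1 at an unadjusted p under 0.05) or by DESeq2. In TD against TA all 7 had a positive log2 fold change (median 1.07) and an unadjusted p under 0.05, and 2 were called. Endothelial markers summed to 24.6 to 51.8 CPM in WT, 44.3 to 79.2 in TA and 94.1 to 117 in TD. Of these 6 genes, 5 rose in TD and 3 in TA relative to WT. Among all tested genes, 15.1% rose and 14.2% fell in TD, and 6.72% rose and 4.41% fell in TA, with WT as the reference. In such bulk samples, fewer cells of a type and less RNA per cell cannot be told apart, and the part of these shifts in the coregulator values below was not tested.

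The receptor itself was lower in TD. Pparg read 373, 331, 344 and 368 CPM in the WT libraries, 353, 428, 322 and 391 in TA, and 258, 257, 223 and 210 in TD. Every TD library was below every WT and TA library, while WT and TA overlapped. On the log2 scale Pparg fell by 0.58 in TD against WT (SE 0.0946, adjusted p = 0.000429, edgeR's quasi-likelihood test with Benjamini-Hochberg adjustment) and by 0.66 against TA (SE 0.0947, adjusted p = 0.000269). The TA against WT difference was 0.08 (SE 0.0941, adjusted p = 0.67). A gene-level count does not show the point mutation and so does not check the genotype labels.

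Ncoa3 and Crebbp were the coregulators called in any comparison, and the shares called were read beside those of all genes. In TD against WT, 2 of 9 rose and 0 fell, where 29.2% of all 15117 tested genes were called (15.1% as higher in TD, 14.2% as lower), so the share of coregulators called was near that of all genes. Comparing TA with WT, 0 of 9 passed the edgeR test, where 11.1% of all tested genes did (6.72% upward, 4.41% downward). Of these 9, only Ncoa1 had an unadjusted p under 0.05, and DESeq2 also called 0. In TD against TA, 2 of 9 rose, where 16.7% of all genes were called (7.33% higher and 9.37% lower). The called pair was the same in both TD comparisons, which share the TD libraries: Ncoa3 and Crebbp. The median log2 fold change of the 9 was 0.04, -0.07 and 0.08 in these 3 comparisons, beside 0.01, -0.01 and 0.02 over all tested genes.

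**Figure D1:**
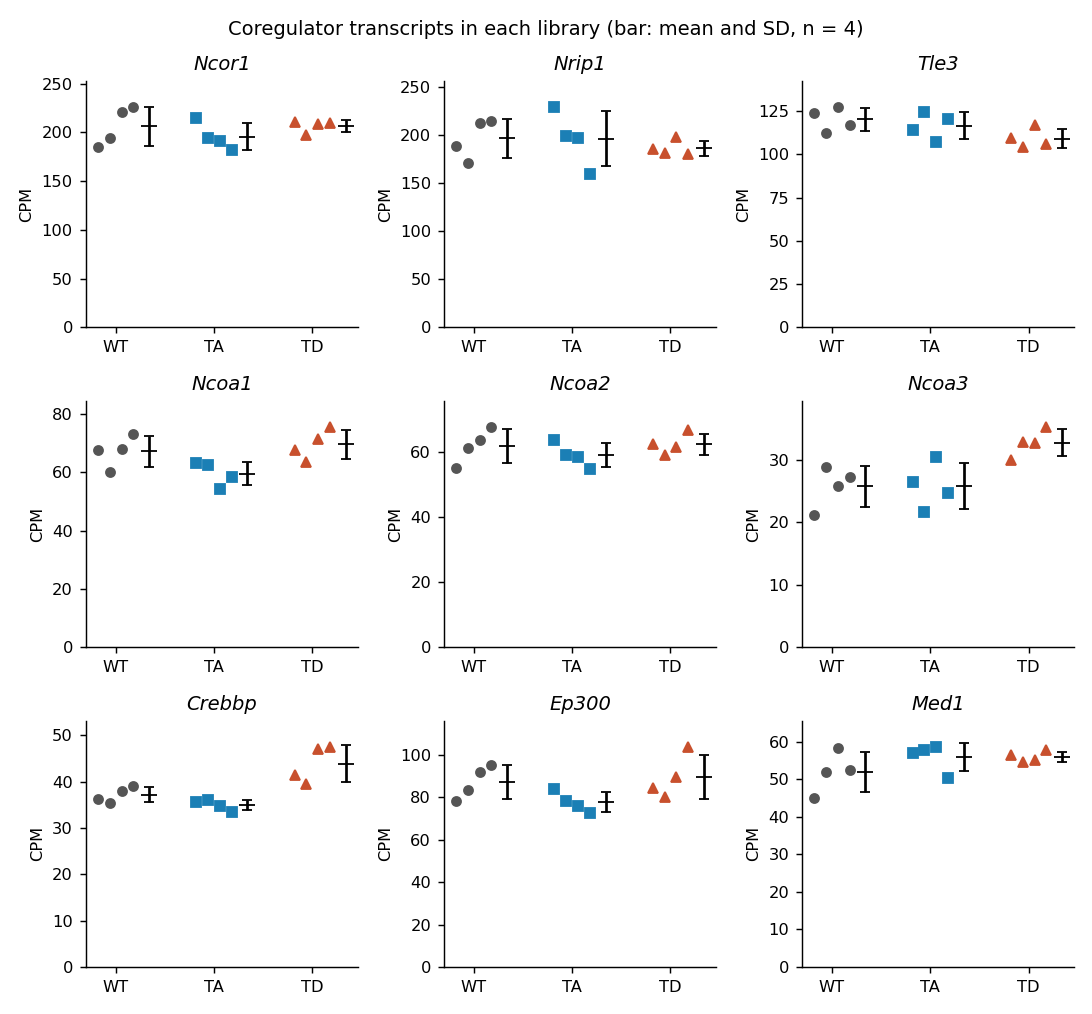
Normalised level (CPM, linear axis from 0) of each coregulator in each of the 12 libraries, by genotype. Points are libraries and bars are the mean with the SD (n = 4). The 4 TD libraries of Crebbp sit between 39.5 and 47.5 CPM, above every WT and TA library, whereas the Ncor1 points of the 3 genotypes overlap.

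Among the corepressors, Ncor1, the scaffold that binds unliganded receptors and activates the deacetylase HDAC3, showed overlapping libraries in all 3 genotypes. It read 185, 194, 221 and 226 CPM in WT, 215, 194, 191 and 182 in TA, and 210, 197, 208 and 210 in TD. The TD values lay inside the WT range and were the tightest of the 3 genotypes, with a coefficient of variation of 2.94% against 9.65% in WT. The log2 fold change of Ncor1 in TD against WT was 0.00018 (SE 0.0779), with a 95% confidence interval of -0.16 to 0.16. In TA against WT it was -0.08 (interval -0.24 to 0.09) and in TD against TA 0.08 (interval -0.09 to 0.24). Differences within these bounds were not resolvable with 4 libraries per genotype.

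Nrip1 encodes RIP140, a ligand-dependent corepressor of energy-expending genes in fat. It read 189, 171, 212 and 214 CPM in WT, 229, 199, 197 and 160 in TA, and 186, 181, 197 and 180 in TD. The TA libraries spread most (coefficient of variation 14.4%) and enclosed all 4 TD values. Fitted log2 fold changes were -0.08 for TD against WT (interval -0.29 to 0.13), -0.003 in TA against WT (interval -0.21 to 0.21) and -0.08 in TD against TA (interval -0.28 to 0.13), with adjusted p-values of 0.588, 0.991 and 0.642 from the edgeR test.

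Tle3, a Groucho-type corepressor known as a dual-function PPARγ partner in adipocytes, had the lowest mean in TD. It read 124, 113, 127 and 117 CPM in WT, 114, 125, 107 and 120 in TA, and 109, 104, 117 and 106 in TD. The highest TD library lay within the WT range, so the groups overlapped. Its log2 fold change of -0.14 for TD against WT (SE 0.0702, interval -0.29 to 0.01, adjusted p = 0.149) did not pass edgeR's test. For TA against WT it was -0.05 (adjusted p = 0.748).

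Of the 3 p160 coactivators, only Ncoa3 was called under the reported edgeR settings, and the 3 genes were not tested against each other. Ncoa1 (SRC-1) read 67.5, 60.2, 68.1 and 73.0 CPM in WT, 63.1, 62.5, 54.3 and 58.3 in TA, and 67.8, 63.6, 71.5 and 75.5 in TD. Every TD library was above every TA library, a separation seen in 19.9% of all tested genes in this comparison, but the edgeR call was missed (log2 fold change 0.22, SE 0.0791, adjusted p = 0.0614). It passed when tested genes had at least 10 counts in every library (0.23, adjusted p = 0.0458) and under scaling by library totals. Against WT, Ncoa1 was -0.17 in TA (SE 0.0791, unadjusted p = 0.0424, adjusted p = 0.179) and 0.05 in TD (SE 0.0787, adjusted p = 0.671), with overlapping libraries in both. Over all tested genes, 13.6% did not overlap between TA and WT, and 0 of the 9 coregulators were among them.

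Ncoa2 (TIF2, SRC-2) read 54.9, 61.1, 63.5 and 67.5 CPM in WT, 63.6, 58.9, 58.3 and 54.8 in TA, and 62.2, 58.9, 61.3 and 66.6 in TD. The 3 genotypes overlapped, and no log2 fold change was beyond 0.08 in either direction. The intervals reached from -0.15 to 0.17 in TD against WT, from -0.23 to 0.09 in TA against WT and from -0.08 to 0.24 in TD against TA.

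Ncoa3 (SRC-3, AIB1) rose in TD. It read 21.1, 28.8, 25.8 and 27.2 CPM in WT, 26.4, 21.6, 30.3 and 24.7 in TA, and 29.9, 32.9, 32.7 and 35.2 in TD. All TD libraries were above all WT libraries, a separation found in 32.2% of tested genes, while the highest TA library exceeded the lowest TD library. The level in TD was 1.27-fold that in WT (log2 fold change 0.34, SE 0.110, adjusted p = 0.0273) and also 1.27-fold that in TA (0.34, SE 0.111, adjusted p = 0.0436), by edgeR. TA and WT had the same mean, 25.7 CPM (SD 3.65 in TA and 3.31 in WT, n = 4 each).

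Both Ncoa3 calls were near the threshold and were lost when any of several libraries was left out singly. Its adjusted p in TD against WT was 0.0933 without WT replicate 1, 0.0501 without WT replicate 3, and 0.0565, 0.0579 and 0.0844 without TD replicates 2, 3 and 4. In TD against TA it was 0.0726, 0.137 and 0.0831 without TA replicates 1, 2 and 4, 0.0852, 0.091 and 0.125 without TD replicates 2, 3 and 4, and 0.0513 and 0.0512 without WT replicates 3 and 4. The fold change kept its sign in each of these, with log2 values of 0.26 to 0.40 against WT and 0.27 to 0.43 against TA over the libraries left out in turn. Ncoa3 lies on chromosome 2 from 165992636 to 166073242 on the plus strand (GRCm38), where its exons share 154 bp with Sulf2 on the opposite strand, and Sulf2 had a mean count of 2732 beside 512 for Ncoa3. Whether counting used strand is not given in the sources used here, so the Ncoa3 value is uncertain. Sulf2 averaged 133 CPM in WT, 175 in TA and 144 in TD (SD 6.65, 11.2 and 14.6). By edgeR it rose in TA against WT (log2 fold change 0.39, adjusted p = 0.00393) and was not called in TD against WT (0.11, adjusted p = 0.31). In TD against TA it fell (-0.28, adjusted p = 0.0233). Gene-level counts do not show reads in the shared stretch, and the part of Sulf2 in the Ncoa3 values was not tested.

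The acetyltransferases CBP and p300, close relatives that acetylate histones at active enhancers, were not called alike. Crebbp read 36.4, 35.4, 38.0 and 39.0 CPM in WT, 35.6, 36.0, 34.7 and 33.5 in TA, and 41.5, 39.5, 47.1 and 47.5 in TD. Every TD library exceeded every WT and every TA library, although the lowest TD value, 39.5 CPM, was close to the highest WT value, 39.0 CPM. Crebbp rose 1.18-fold in TD against WT (log2 fold change 0.24, SE 0.0758, adjusted p = 0.0254) and 1.26-fold in TD against TA (0.33, SE 0.0762, adjusted p = 0.00835), by edgeR, and was -0.09 in TA against WT (interval -0.25 to 0.07).

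TD replicates 3 and 4 carried the 2 highest Crebbp values. They also had the highest preadipocyte and fibroblast marker sums of all libraries, 21668 and 23738 CPM, and the highest muscle marker sums, 326 and 186 CPM. Without TD replicate 3 the adjusted p of Crebbp in TD against WT was 0.0924, without TD replicate 4 it was 0.0946, and without WT replicates 1 and 2 it was 0.0573 and 0.0644. The TD against TA call was kept with every single library left out in turn (log2 fold change 0.29 to 0.38).

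Ep300 read 78.4, 83.4, 91.8 and 95.6 CPM in WT, 84.0, 78.3, 76.2 and 72.8 in TA, and 84.7, 80.4, 89.7 and 104 in TD. The TD and WT libraries overlapped, and 3 TA libraries lay below all WT libraries. No comparison was called: the edgeR log2 fold changes were 0.04 for TD against WT (interval -0.15 to 0.22), -0.17 in TA against WT (interval -0.35 to 0.02, adjusted p = 0.256) and 0.20 in TD against TA (interval 0.02 to 0.39, adjusted p = 0.122).

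Med1, the Mediator subunit that nuclear receptors contact, read 44.9, 52.0, 58.2 and 52.4 CPM in WT, 57.0, 57.7, 58.6 and 50.2 in TA, and 56.4, 54.7, 55.2 and 57.6 in TD. The TD libraries were again the tightest, with a coefficient of variation of 2.37% beside 10.5% in WT, and lay inside the WT range. The log2 fold change was 0.11 in both mutants against WT (intervals -0.06 to 0.28, adjusted p = 0.329 in TD and 0.448 in TA) and 0.002 between the mutants (interval -0.17 to 0.17).

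**Figure D2:**
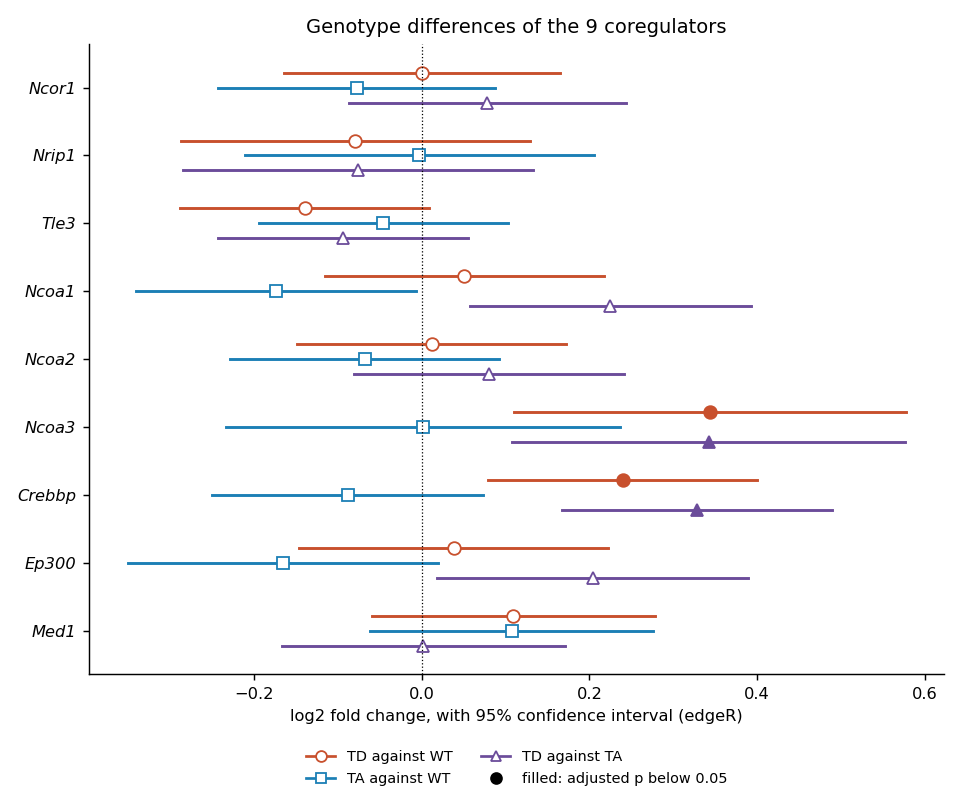
Log2 fold change of each coregulator in the 3 comparisons, with 95% confidence intervals from the edgeR fit. Filled symbols passed an adjusted p threshold of 0.05: Ncoa3 in both TD comparisons (0.34 against WT, 0.34 against TA), Crebbp likewise (0.24 and 0.33), and no coregulator in TA against WT.

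After a correction for exon length, both Crebbp calls and the Ncoa3 call in TD against TA were lost. Ncoa3 kept its call in TD against WT, just below the threshold. The merged exons of the 9 genes spanned 7895 bp (Ncoa3) to 15642 bp (Ncoa2), and the share of counts in genes with at least 5 kb of exon was 39.1% to 42.2% in WT, 41.2% to 44.4% in TA and 44.5% to 47.9% in TD. Over all tested genes, the median log2 fold change in TD against WT went from -0.08 below 1000 bp of exon to 0.09 above 8000 bp, and in TD against TA from -0.14 to 0.10. After a per-library correction for exon length, Crebbp was 0.12 (adjusted p = 0.233) in TD against WT and 0.22 (adjusted p = 0.0516) in TD against TA. Ncoa3 was 0.26 (adjusted p = 0.04997) and 0.27 (adjusted p = 0.069). In the same fit Tle3 fell by 0.25 in TD against WT (adjusted p = 0.0347). Scaling by library totals in place of TMM left 2 members called in TD against WT and gave 4 in TD against TA, adding Ncoa1 (0.30, adjusted p = 0.00884) and Ep300 (0.28, adjusted p = 0.03).

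Per length of merged exon, Nrip1 and Ncor1 had the highest mean levels of the 9 and Crebbp the lowest. In WT the mean RPKM was 17.2 ± 1.79 for Nrip1, 16.1 ± 1.55 for Ncor1, 10.3 ± 0.568 for Tle3, 7.83 ± 0.616 for Ncoa1, 6.12 ± 0.548 for Ep300, 5.93 ± 0.619 for Med1, 3.95 ± 0.337 for Ncoa2, 3.26 ± 0.419 for Ncoa3 and 2.75 ± 0.12 for Crebbp (SD, n = 4). Neighbours whose WT libraries overlapped were Nrip1 with Ncor1, Ep300 with Med1, Ncoa2 with Ncoa3, and Ncoa3 with Crebbp. The order depended on the length used: divided by the longest coding transcript, Tle3 moved to rank 2 in WT (23.1 RPKM beside 24.99 for Nrip1 and 22.8 for Ncor1), since its 11653 bp of merged exon stand against a longest coding transcript of 5205 bp. By that length Ncoa3 was the lowest in WT (3.42 RPKM), with Crebbp next (3.44). In TD, Ncoa3 (4.14 ± 0.273 RPKM) stood above Ncoa2 (3.98 ± 0.206) by exon length, with overlapping libraries.

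**Figure D3:**
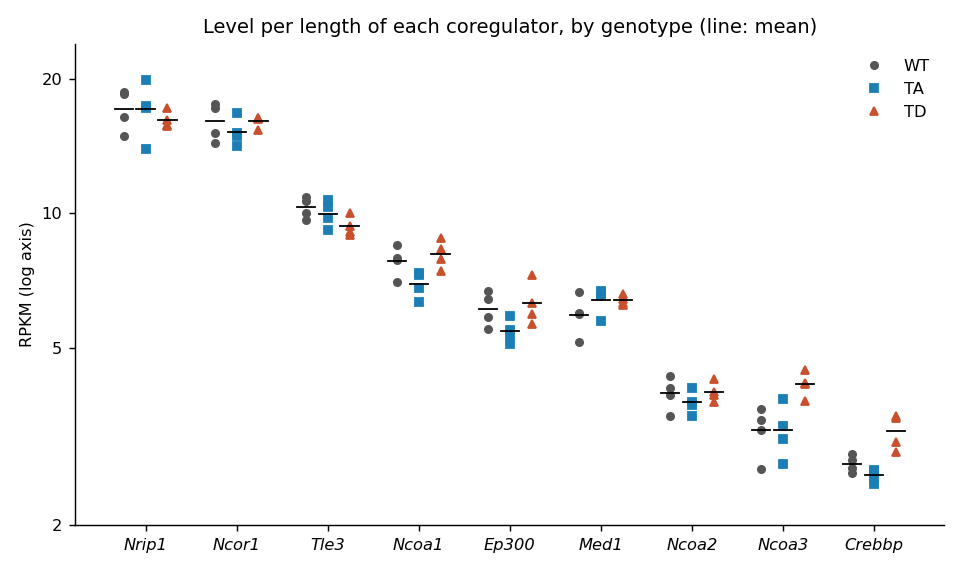
Level per length (RPKM over merged exons, log axis) of the 9 coregulators, ordered by their WT mean. Points are the 4 libraries of each genotype and lines are means. Genes run in the WT order from Nrip1 (17.2 in WT) to Crebbp (2.75 in WT). By means this order differs in the mutants: Med1 is above Ep300 in TA and TD, and Ncoa3 is above Ncoa2 in TD. Libraries of different genotypes separate only for Crebbp and, against WT, Ncoa3, and for Ncoa1 between TA and TD.

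Ratios within a library do not depend on its scaling, and are given as a description. The p300 to CBP transcript ratio per kb of exon was 2.23 ± 0.126 in WT, 2.11 ± 0.0842 in TA and 1.94 ± 0.109 in TD, with TD (1.81 to 2.07) and WT (2.04 to 2.32) touching at their ends. The Ncoa3 to Ncoa2 ratio was 0.825 ± 0.0753 in WT, 0.868 ± 0.129 in TA and 1.04 ± 0.064 in TD. Every TD library (0.953 to 1.11) lay above every WT library (0.762 to 0.934), while TA (0.726 to 1.03) overlapped TD. The Ncoa3 to Ncoa1 ratio overlapped among all 3 genotypes (0.34 to 0.52 in WT, 0.375 to 0.607 in TA and 0.479 to 0.562 in TD). The Ncoa2 to Ncoa1 ratio stayed between 0.446 and 0.588 in all 12 libraries.

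**Figure D4:**
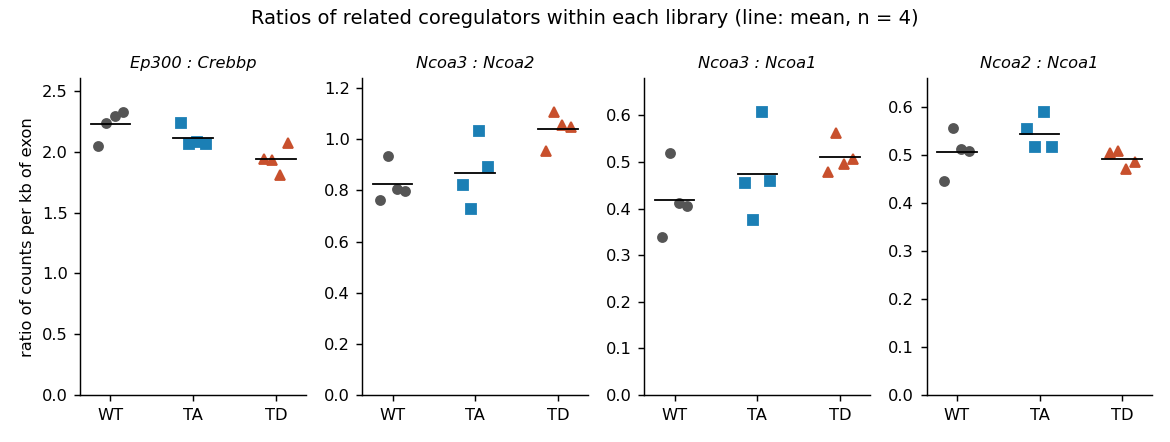
Ratios of counts per kb of exon between related coregulators in each library, by genotype (lines are means, n = 4). The Ncoa3 to Ncoa2 ratio is 0.953 to 1.11 in TD and 0.762 to 0.934 in WT, with TA (0.726 to 1.03) overlapping both. Ncoa3 to Ncoa1 overlaps among all 3 genotypes. Ncoa2 to Ncoa1 overlaps between each mutant and WT but is higher in every TA (0.515 to 0.588) than in every TD library (0.47 to 0.508).

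Ncoa3 and Crebbp had the widest range of genotype means among the 9 (0.35 and 0.32 on the log2 scale). The genes whose centred log2 CPM over the 12 libraries lay closest to Ncoa3, of 10548 genes averaging 5 CPM or more, were Tnrc6c (root mean square difference 0.055), Tm7sf3 (0.074) and Zfp874b (0.0741), beside a median of 0.288 over all these genes. Closest to Crebbp were Sipa1l2 (0.0657), the histone demethylase gene Kdm3b (0.0665) and Zfp592 (0.0703), beside a median of 0.24. These genes were picked as the nearest, so their place below the median is fixed by the selection. Among the 9 themselves the closest pair was Ncor1 and Ncoa2 (0.0384).

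Of 107 other coregulator genes listed by function, 104 were tested. In TD against WT 9 rose and 5 fell (8.65% and 4.81%), in TA against WT 7 rose and 2 fell (6.73% and 1.92%), and in TD against TA 8 rose and 5 fell (7.69% and 4.81%), with medians of 0.01, -0.02 and 0.02 on the log2 scale. Over all tested genes the higher and lower shares were 15.1% and 14.2%, 6.72% and 4.41%, and 7.33% and 9.37% in the same order. The split in TD against WT was 16 higher and 4 lower under scaling by library totals and 7 higher and 12 lower after the length correction. In TD against TA it was 18 and 4, and 4 and 7.

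Within the NCoR complex, edgeR called 0 of 5 other subunits in TD against WT, where it called 29.2% of all tested genes. Of the 5, 2 had an unadjusted p under 0.05 and DESeq2 called 1 (Hdac3, lower in TD). The subunit gene Tbl1x rose in TA against WT (237 ± 13.1 CPM and 188 ± 17.3 CPM, respectively, log2 fold change 0.34, adjusted p = 0.00711) and fell by 0.30 in TD against TA (adjusted p = 0.0122). Hdac3, the deacetylase of the complex, averaged 70.4 CPM in WT, 67.9 in TA and 59.7 in TD and was not called by edgeR in any comparison.

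Of the 5 other Groucho genes, Tle2 rose in both mutants, by 1.03 on the log2 scale in TD against WT (7.17 ± 1.06 against 3.50 ± 0.502 CPM, adjusted p = 0.00178) and by 0.78 in TA against WT (adjusted p = 0.0236). Aes, the short family member, fell by 0.40 in TD against WT (142 ± 5.41 against 188 ± 14.8 CPM, adjusted p = 0.00124). Among 19 other corepressors tested, Hdac7, a class IIa deacetylase, rose in TD against both WT (94.7 ± 8.25 against 63.8 ± 6.93 CPM, 0.57, adjusted p = 0.00211) and TA (0.52, adjusted p = 0.00737). Phb2, a prohibitin that represses the estrogen receptor, fell in both mutants against WT, by 0.45 in TD (adjusted p = 0.00111) and by 0.30 in TA (adjusted p = 0.0305), and Nrip2 rose in both, by 0.49 in TA (adjusted p = 0.0174) and by 0.43 in TD (adjusted p = 0.0151).

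The PGC-1 coactivators, inducible partners of PPARγ in mitochondrial and thermogenic programs, did not all move alike. Ppargc1a rose in TA against WT (16.2 ± 2.14 against 11.3 ± 0.63 CPM, log2 fold change 0.52, adjusted p = 0.00533) and was lower in TD than in TA (9.20 ± 0.452 CPM, a fall of 0.81 on the log2 scale, adjusted p = 0.000173). In TD against WT it was -0.29 and not called. Ppargc1b fell in both mutants, by 0.77 in TD (9.21 ± 1.08 against 15.7 ± 4.95 CPM, adjusted p = 0.00378) and by 0.97 in TA (8.01 ± 0.608 CPM, adjusted p = 0.00181), and was not called between the mutants (0.20). Pprc1 rose in TD against TA (0.34, adjusted p = 0.0361). Prdm16, the coregulator that directs brown and beige fat identity, averaged 11.7, 10.9 and 10.2 CPM in WT, TA and TD and was not called in any comparison.

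Among the other NCOA proteins and arginine methyltransferases, Helz2, a PPAR-interacting helicase, rose in TD (134 ± 41.5 against 83.2 ± 14.5 CPM in WT, 0.69, adjusted p = 0.00534) and in TA (123 ± 8.07 CPM, 0.57, adjusted p = 0.0334). Carm1, an arginine methyltransferase that works with p160 proteins, rose in TD against both TA (0.33, adjusted p = 0.0137) and WT (0.33, adjusted p = 0.00847), and Ncoa4, a ferritin receptor despite its name, fell in TD by 0.31 against WT (adjusted p = 0.0212) and by 0.34 against TA (adjusted p = 0.021). Of 6 tested partners of the acetyltransferases, Cited2 rose in TA against WT (0.27, adjusted p = 0.0329).

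Of the 32 other Mediator subunits, 0 rose and 1 fell in TD against WT, where 15.1% of all tested genes rose and 14.2% fell. The 1 was Med22 (57.0 ± 1.35 against 78.2 ± 6.68 CPM, a fall of 0.46, adjusted p = 0.000585). In TA against WT 0 of the 32 were called by edgeR (2 at an unadjusted p under 0.05) or by DESeq2. There edgeR called 11.1% of all tested genes. In TD against TA 1 rose, Med13l (0.45, adjusted p = 0.00976), where 7.33% of all tested genes rose. The 2 that fell, beside 9.37% of all tested genes, were Med10 by 0.45 (adjusted p = 0.0455) and Med22 by 0.30 (adjusted p = 0.0168). Of the 10 tested genes of the MLL3 and MLL4 complexes, which methylate histone H3 at enhancers, 0 were called in any comparison by edgeR. In each comparison 1 of them had an unadjusted p under 0.05, and DESeq2 called 1, Kmt2d, in TD against TA. Of 12 SWI/SNF subunits, Smarca2 was the only one called in any comparison by edgeR, higher in TD than in TA (117 ± 4.38 against 98.8 ± 4.34 CPM, 0.24, adjusted p = 0.0129).

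**Figure D5:**
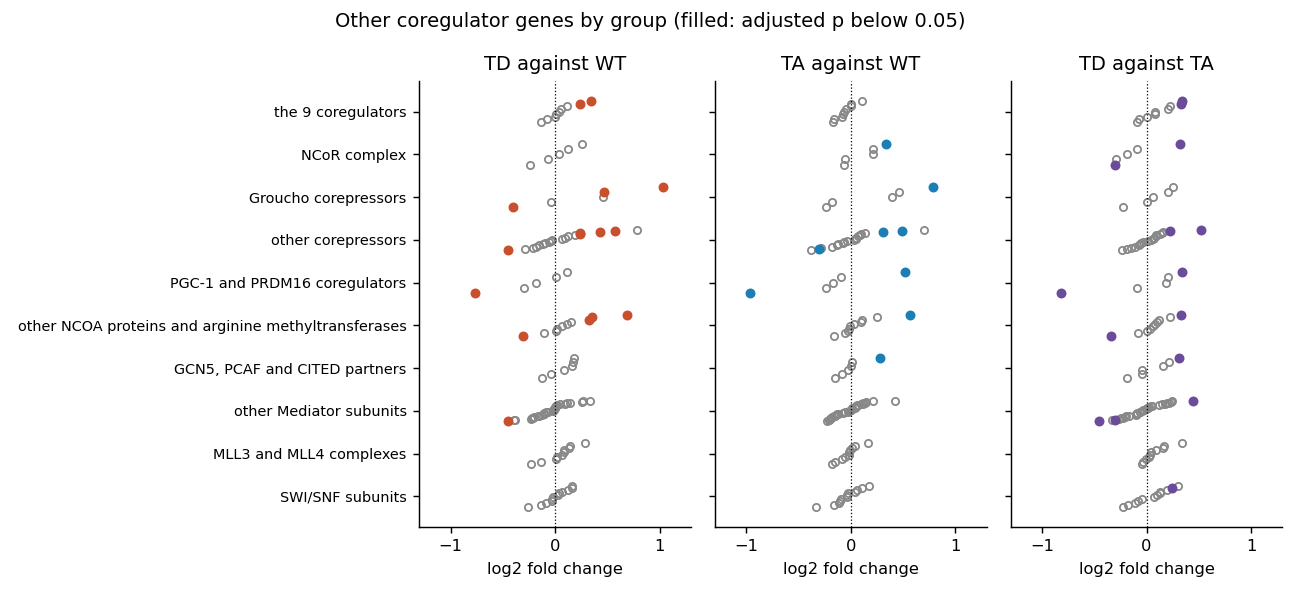
Log2 fold changes of the 9 coregulators and of the other tested coregulator genes, grouped by function, in the 3 comparisons. Each point is a gene and filled points passed an adjusted p of 0.05. Filled points in TD against WT include 3 of the 5 Groucho genes and 0 of the 10 MLL3 and MLL4 genes. These groups are small, and 29.2% of all tested genes were called in this comparison. Over the whole list 8.65% were called higher and 4.81% lower. The points farthest from 0 are Tle2 (1.03 in TD against WT) and Ppargc1b (-0.97 in TA against WT).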

How the data were processed

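RNA-seq gene counts of 12 libraries (4 WT, 4 TA, 4 TD) were analysed. The authors deposited whole-number read counts per Ensembl gene, made on GRCm38. The submitters' processing notes name bcl2fastq 2.17.1.14, cutadapt 1.9.1, HISAT2 2.0.1 and HTSeq 0.6.1. The library kit's strand setting is not given in the sources used here. Dexamethasone is stated with different units in the labels and the methods and is given without a dose. Library depth was 16553324 to 20324286 counts.

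Genes passing edgeR's expression filter (minimum count 10, total 15) were fitted with edgeR 4.0.16 in R 4.3.3, using TMM scaling, a quasi-likelihood test over all 3 genotypes and Benjamini-Hochberg adjustment over 15117 genes, with calls at an adjusted p below 0.05. RPKM used merged exons from GENCODE M21. The code was tested on simulated data. The members, and the lists of other coregulators and markers, were chosen with earlier results of these data known. Named genes were the 9 members in full, Pparg, in each functional group and comparison the called gene with the largest rise and fall, and the 3 genes nearest in pattern to the pair of members with the widest genotype range. Hdac3, Prdm16, Kmt2d, Sulf2 and the markers Fabp4, Adipoq and Dlk1 were named after their values were seen, for context. Some genes that the rule names are not reported here. Replicate libraries differed by more than sampling noise (chi-square per degree of freedom 4.88 to 37.5). Alternatives were DESeq2 1.42.0, library-total scaling, other filters, a replicate block, a correction of each library for exon length, fits of 2 genotypes only, and leaving out libraries.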

Additional observations from a re-analysis of the deposited data

Results flagged for a closer look

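Ncor1 in TD replicate 2 read 197 CPM, apart from the other 3 TD libraries at 208 to 210 CPM. The gap was 0.838 of the group's whole range, above Dixon's 95% critical value for 4 samples. Chance flags about 1 in 20 groups, and 30 sets of 4 libraries (the 9 coregulators and Pparg in 3 genotypes) were examined. The TD range of Ncor1 was itself narrow, 197 to 210 CPM, and inside the WT range of 185 to 226 CPM.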

How the results depend on the processing

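The direction of Ncoa3 and Crebbp in TD against WT and in TD against TA held under every alternative run, but their calls did not. Fewer coregulators were called when nothing was filtered on low counts (1 in TD against WT, Ncoa3) and after the exon length correction (0 in TD against TA). Leaving out TD replicates 3 and 4 together was chosen after seeing the data, and since these hold the highest Crebbp values, a smaller Crebbp fold was fixed by the choice and its values bear on no call. That fit gave 0 coregulators in TD against WT and 0 in TD against TA, 5 and 1 of the longer list, and 1516 and 634 of all genes, with fewer samples in it. Scaling by library totals gave 4 coregulators and 22 of the longer list in TD against TA, and moved the higher share of all calls from 51.5% to 64.6% in TD against WT and from 43.9% to 64.7% in TD against TA. With at least 10 counts in every library 3 coregulators were called in TD against TA, with Ncoa1 added. The length correction called 2 in TD against WT, Ncoa3 and Tle3. DESeq2 and fits of 2 genotypes only called the same number of the 9 as reported. The cause of these differences was not tested.

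The replicate numbers did not pair the samples (correlations of same-numbered deviations from -0.237 to 0.196). With a replicate block, 1 coregulator was called in TD against TA, Crebbp, Ncoa3 having an adjusted p of 0.0507. With the block and the length correction together it was 0 in TD against WT and 0 in TD against TA.

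Leaving out 1 library at a time gave 0 to 2 coregulators in TD against WT (0 without WT replicate 1, TD replicate 3 or TD replicate 4) and 1 to 2 in TD against TA. Of the longer list, 5 to 9 were called in TA against WT (5 without WT replicate 4) and 6 to 17 in TD against TA (6 without TA replicate 2 or TD replicate 4), and 1422 to 3526 of all genes in TD against TA.

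Log2 fold changes near 0 that were never called changed sign. By library totals Ncoa3 was -0.0063 in TA against WT and Nrip1 0.0028 in TD against TA. By DESeq2 Ncor1 was -0.0093 (TD against WT), Ncoa3 -0.0025 (TA against WT) and Med1 -0.0037 (TD against TA). Unfiltered, Ncor1 was -0.0018 (TD against WT) and Ncoa3 -0.0095 (TA against WT), and with at least 10 counts in every library Nrip1 was 0.0017 (TA against WT). After the length correction Ncor1 was -0.11, Ncoa1 -0.041, Ncoa2 -0.12 and Ep300 -0.086 in TD against WT, Ncoa3 -0.0069 in TA against WT, and Ncor1 -0.026, Ncoa2 -0.037 and Med1 -0.080 in TD against TA. With the block added these were -0.11, -0.039, -0.12, -0.087, -0.0051, -0.026, -0.037 and -0.078. Without TD replicates 3 and 4, Ncor1 was -0.018, Ncoa1 -0.033, Ncoa2 -0.028 and Ep300 -0.081 in TD against WT, and Med1 -0.0093 in TD against TA. Over single libraries left out, the ranges were -0.046 to 0.044 for Ncor1, -0.00045 to 0.091 for Ncoa1, -0.037 to 0.055 for Ncoa2 and -0.040 to 0.087 for Ep300 in TD against WT. They were -0.087 to 0.073 for Ncoa3 and -0.087 to 0.075 for Nrip1 in TA against WT, and -0.15 to 0.010 for Nrip1 and -0.036 to 0.024 for Med1 in TD against TA. Ncoa3 had the lowest counts of the 9, and the effect of depth on its values was not tested.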
